A study of Sus scrofa with 4 samples.

Results

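The genes described here are markers of the alveolar type 1 cell, the flat epithelial cell through which gas crosses between air and blood. A list of 10 genes was used (AGER, HOPX, PDPN, AQP5, RTKN2, CLIC5, EMP2, CLDN18, GPRC5A and SCNN1A), matched by gene symbol to the 29263 genes counted in each library. A row was found for 9 of them, and all 9 passed the filter on low counts that left 19682 genes for testing. No row carried the symbol HOPX, which encodes a homeodomain protein of type 1 cells, and HOPX was not analysed here.

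The libraries are bulk RNA-seq of lung cells from pigs of the LGR5-H2B-GFP knock-in genotype. The knock-in lets cells that transcribe LGR5, a receptor for R-spondins, make a fluorescent histone. Cells were sorted by fluorescence into a bright fraction (GFP-HI, 2 libraries) and a fraction without fluorescence (GFP-NEG, 2 libraries). Every library carries the knock-in, so no wild-type lung is among them. Each fraction has a biological replicate 1 and 2. The labels give no age, sex or developmental stage for a library (the shared protocol covers adult and fetal lung) and do not say whether the antibodies against EPCAM or NGFR named in it gated these cells. The authors' comparison table has the words adult pig in its name, and its headings name a pig 1 and a pig 2, but 2 of those 4 headings stand over counts of a different library. Whether the same replicate number in both fractions marks 1 animal is therefore not established.

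Alveolar epithelium is made of type 1 cells, which cover most of the surface, and cuboidal type 2 cells, which make surfactant and can give rise to type 1 cells. Type 1 cells are spread very thin and are recognised by membrane proteins: receptors (AGER, GPRC5A), water and sodium channels (AQP5, SCNN1A), junction proteins (CLDN18) and proteins that shape the membrane and its cytoskeleton (PDPN, CLIC5, EMP2, RTKN2). Several of these genes are also transcribed outside the epithelium. Podoplanin, for example, is a textbook marker of lymphatic endothelium and is made by some fibroblasts and mesothelial cells.

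The GFP-HI libraries held 24200550 and 24689986 counts and the GFP-NEG libraries 6292253 and 7045652, so GFP-HI was sequenced 3.67 times as deeply on average. LGR5 was at 146 and 152 CPM (counts scaled to a common library size with TMM factors) in GFP-HI against 1.55 and 0.760 CPM in GFP-NEG, as the labels call for. EPCAM, the general epithelial surface protein, was at 2.04 and 1.64 CPM in GFP-HI against 5.58 and 3.80 CPM in GFP-NEG, lower in both GFP-HI libraries, and did not pass the test (adjusted p of 0.337, edgeR). The 8 fibroblast markers summed to 64020 and 56240 CPM in GFP-HI and to 20140 and 6746 CPM in GFP-NEG. In bulk RNA, fewer cells of a type and less RNA per cell cannot be told apart. Odorant receptor genes, which lung is not known for, had a 95th percentile of 0 CPM in both GFP-HI libraries, 1.36 CPM in replicate 1 of GFP-NEG and 4.84 CPM in replicate 2. A list of genes of other tissues, such as muscle and liver, had a 95th percentile of 7.92 and 17.1 CPM in GFP-HI and of 9.35 and 6.17 CPM in GFP-NEG (replicates 1 and 2). In GFP-HI replicate 2, only PDPN and EMP2 of the 9 type 1 cell genes lay above that level. In GFP-NEG replicate 2, AQP5, RTKN2, CLDN18 and SCNN1A lay below it, and AQP5 and SCNN1A did so in every library. This percentile is a coarse floor: the list has 24 genes, with a median of 0 CPM in both GFP-HI libraries. A few high genes therefore set it, and the highest in GFP-HI replicate 2 was CYP7A1 at 48.1 CPM. All 9 type 1 cell genes lay above the odorant receptor percentile in both GFP-HI libraries, but at 0 CPM any gene with a count does so.

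The 9 genes, with SCNN1A set apart, fell into 2 patterns, a grouping made after their values were seen. AGER, AQP5, CLDN18, CLIC5, GPRC5A and RTKN2 followed the replicate. Each was at least 2-fold higher in replicate 1 than in replicate 2 in both fractions. With TMM scaling the fractions of 1 replicate lay closer together than the replicates did. PDPN and EMP2 were higher in GFP-HI in both replicates. EMP2 was also higher in replicate 1 than in replicate 2, by 1.53-fold in GFP-HI and by 7.09-fold in GFP-NEG. SCNN1A was placed in neither pattern. It was higher in replicate 1 than in replicate 2 by 1.51-fold in GFP-HI and by 5.00-fold in GFP-NEG. Its fractions were level in replicate 1, with a ratio of 1.03. It was low throughout, but so was AQP5. Between fractions, 2 of the 9 genes were higher in GFP-HI by edgeR (quasi-likelihood test, threshold 0.05 after adjustment over all 19682 genes), against 8.35% of all genes tested. None was lower (0 of 9, also 0 at an unadjusted p under 0.05 and 0 with DESeq2), against 27.6% of all genes. That share is not matched for level and varied with the filter. It was 5433 of 19682 genes here and 3524 of 16993 with at least 10 counts in every library of 1 group. GFP-NEG had counts for 24120 and 25985 genes and GFP-HI for 18752 and 18392 (replicates 1 and 2). The median log2 fold change of the 9 genes was -0.34, and that of all tested genes was -0.25.

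**Figure D1:**
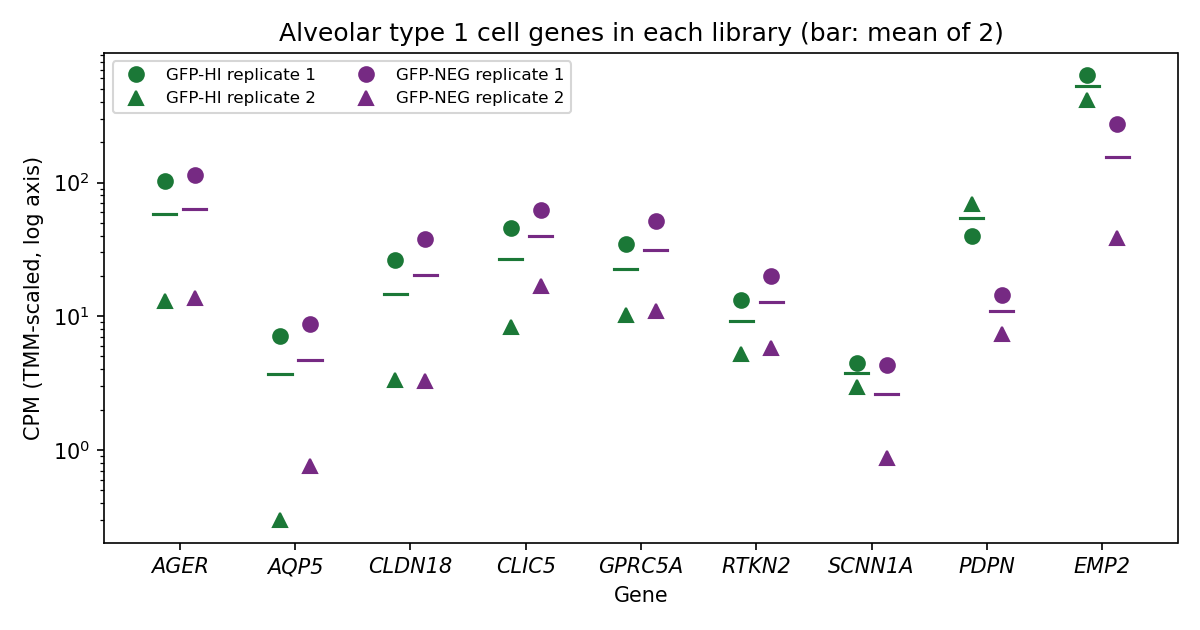
Level of each matched gene in each library, in TMM-scaled CPM on a log axis; green is GFP-HI, purple is GFP-NEG, circles are replicate 1, triangles are replicate 2, and the short line is the mean of 2 libraries. For AGER both circles lie near 100 CPM (103 and 113) and both triangles near 13 (12.98 and 13.8), whereas for PDPN both green points (40.0 and 69.4) lie above both purple ones (14.4 and 7.38). Levels are not per transcript length and are not to be compared between genes.

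AGER encodes RAGE, a cell surface receptor of the immunoglobulin superfamily that is abundant on type 1 cells. It had 2283 counts in GFP-HI replicate 1, 262 in GFP-HI replicate 2, 731 in GFP-NEG replicate 1 and 127 in the other GFP-NEG library. These are 103, 12.98, 113 and 13.8 CPM. The 2 replicate 1 libraries were high and the 2 replicate 2 libraries low, so the fractions overlapped. Replicate 1 was above replicate 2 by 7.96-fold in GFP-HI (95% exact binomial interval 7.005 to 9.08, which like all such intervals here covers counting error only) and by 8.22-fold in GFP-NEG (6.80 to 10.0). The ratio of GFP-HI to GFP-NEG was 0.913 within replicate 1 (0.840 to 0.993) and 0.942 within replicate 2 (0.759 to 1.17). The fitted log2 fold change between fractions was -0.13 (standard error 0.52, 95% interval -1.14 to 0.89, adjusted p of 0.877, edgeR). How level the fractions were depends on the scaling: by library size alone GFP-HI was at 0.812 of GFP-NEG in replicate 1 (0.747 to 0.884) and at 0.589 in replicate 2 (0.474 to 0.734).

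GPRC5A, a retinoic acid-inducible orphan receptor of the lung epithelium, had the same order of libraries with a smaller step. Its levels were 34.7 and 10.2 CPM in GFP-HI against 51.3 and 10.9 CPM in GFP-NEG (replicates 1 and 2). The step from replicate 2 up to replicate 1 was 3.40-fold in GFP-HI and 4.73-fold in GFP-NEG. Within replicate 1, GFP-HI was at 0.676 of GFP-NEG (0.594 to 0.772), and within replicate 2 at 0.941 (0.737 to 1.21). The second interval includes 1 with TMM scaling, but by library size alone that ratio was 0.588 (0.461 to 0.754). The fitted log2 fold change was -0.47 (standard error 0.53, adjusted p of 0.531, edgeR).

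AQP5 encodes the water channel of the apical type 1 cell membrane. It had 156 and 6 counts in GFP-HI against 56 and 7 counts in GFP-NEG (replicates 1 and 2), or 7.07, 0.297, 8.68 and 0.760 CPM. Both replicate 2 libraries were close to empty for this gene, and the GFP-NEG one was below the 95th percentile of the odorant receptor genes in the same library. Replicate 1 was above replicate 2 by 23.8-fold in GFP-HI (10.7 to 65.7) and by 11.4-fold in GFP-NEG (5.19 to 29.7). With TMM scaling the intervals of the GFP-HI to GFP-NEG ratio included 1 within replicate 1, at 0.814 (0.596 to 1.13), and within replicate 2, at 0.391 (0.109 to 1.36). By library size alone the ratio in replicate 2, which rests on 6 and 7 counts, was 0.245 (0.0679 to 0.850).

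SCNN1A, the alpha subunit of the epithelial sodium channel that clears fluid from the alveolus, was at 4.48 and 2.97 CPM in GFP-HI against 4.34 and 0.868 CPM in GFP-NEG (replicates 1 and 2). GFP-NEG replicate 2 stood apart, with 8 counts, and lay under the odorant receptor percentile of that library. The fractions were level in replicate 1, with a ratio of 1.03 (0.673 to 1.63). In replicate 2 GFP-HI was 3.42 times as high (1.63 to 8.29). The fitted log2 fold change of 0.53 carried a standard error of 1.05 and an adjusted p of 0.738 (edgeR), and it was -0.26 without GFP-NEG replicate 2.

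CLDN18 encodes a claudin of alveolar tight junctions that both alveolar cell types express. Its levels were 26.1 and 3.32 CPM in GFP-HI against 37.7 and 3.26 CPM in GFP-NEG (replicates 1 and 2). In replicate 2 the ratio of GFP-HI to GFP-NEG was 1.02 (0.654 to 1.63) with TMM scaling and 0.637 (0.409 to 1.02) by library size alone, and in replicate 1 GFP-HI was at 0.694 of GFP-NEG (0.596 to 0.810). The step between replicates was 7.87-fold in GFP-HI (6.10 to 10.3) and 11.6-fold in GFP-NEG (7.89 to 17.5). Like AQP5, CLDN18 in GFP-NEG replicate 2 lay under the odorant receptor percentile, at 30 counts.

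CLIC5 encodes a chloride intracellular channel protein that associates with ezrin and the cortical actin cytoskeleton. It was the matched gene with the lowest fitted fold change. Its counts were 1000 and 167 in GFP-HI against 401 and 156 in GFP-NEG, which are 45.3, 8.28, 62.1 and 16.9 CPM. GFP-HI was at 0.729 of GFP-NEG in replicate 1 (0.648 to 0.820) and at 0.489 in replicate 2 (0.391 to 0.612), so that both ratios were below 1 by more than counting error. The fitted log2 fold change of -0.56 carried a standard error of 0.52, an interval of -1.58 to 0.45 and an adjusted p of 0.426 (edgeR), so the difference did not pass the test. By library size alone the ratios were 0.648 in replicate 1 and 0.306 in replicate 2. Replicate 1 was above replicate 2 by 5.47-fold in GFP-HI and 3.67-fold in GFP-NEG, or 6.11-fold and 2.88-fold by library size alone.

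RTKN2 is a type 1 cell gene that is also transcribed in lymphocytes. It was at 13.1 and 5.20 CPM in GFP-HI against 19.8 and 5.75 CPM in GFP-NEG (replicates 1 and 2). Its step between replicates was the smallest of the 6 genes that followed the replicate, at 2.52-fold in GFP-HI (2.01 to 3.19) and 3.45-fold in GFP-NEG (2.48 to 4.84). GFP-HI was at 0.662 of GFP-NEG in replicate 1 (0.536 to 0.822) and at 0.905 in replicate 2 (0.644 to 1.28), or 0.565 (0.403 to 0.802) there by library size alone. Lymphocyte markers ran the other way between replicates: the T and NK cell list summed to 489 CPM in GFP-NEG replicate 1 and to 853 CPM in its replicate 2, and the B cell list to 215 and 525 CPM. The part of lymphocytes in the RTKN2 levels was not tested.

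**Figure D2:**
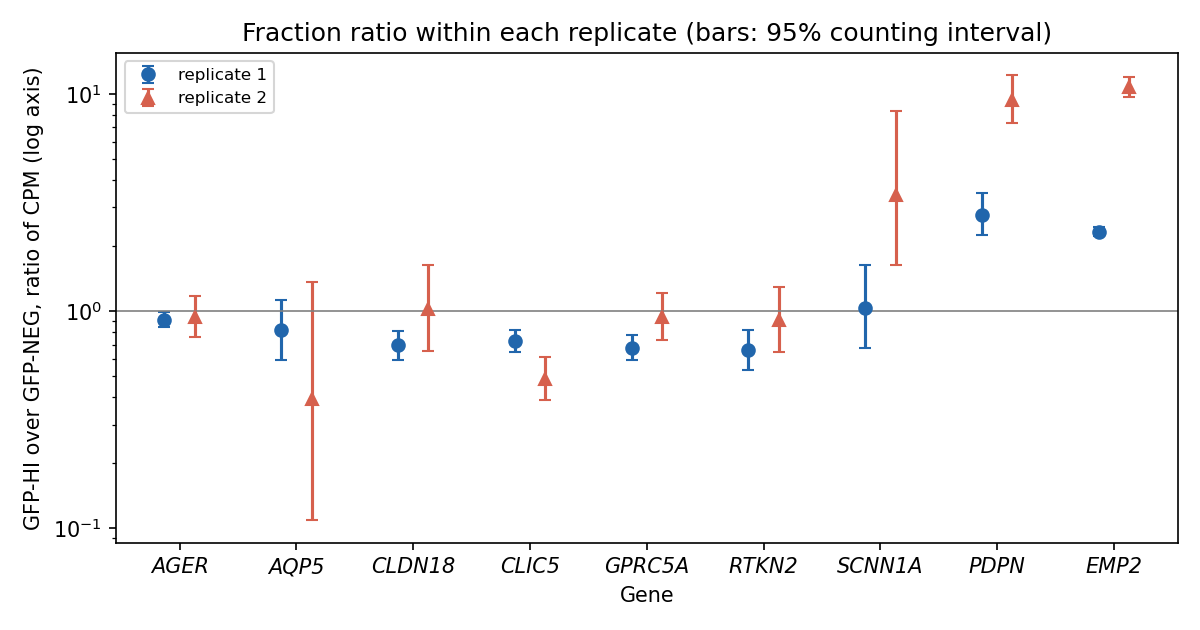
Ratio of GFP-HI to GFP-NEG within each replicate for the 9 genes, on a log axis, with 95% exact binomial intervals that cover counting error only; the grey line marks equal levels. PDPN and EMP2 stand above 1 in both replicates and further above it in replicate 2 (9.40 and 10.7) than in replicate 1 (2.78 and 2.32), while CLIC5 is below 1 in both.

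Seen over all 9 genes, GFP-HI was below GFP-NEG within both replicates for 5 genes (AGER, AQP5, CLIC5, GPRC5A and RTKN2), against 46.3% of all tested genes. It was above GFP-NEG within both for 3 genes (EMP2, PDPN and SCNN1A), against 33.7% of all tested genes. These shares are close to the background. CLDN18 lay below in replicate 1 and 2% above in replicate 2. With scaling by library size alone, SCNN1A moved to 0.919 in replicate 1 and CLDN18 to 0.637 in replicate 2, and the side of 1 on which the other 7 genes lay was kept. Both GFP-HI libraries lay above both GFP-NEG libraries for 2 of the 9 genes (EMP2 and PDPN), against 27.9% of all tested genes, and below them for 0 of 9, against 41.9%. The groups thus did not overlap for 2 of 9, against 69.8% of all tested genes, and 36.0% of all tested genes passed the test in either direction.

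For 6 genes the step between replicates was larger than the difference between fractions with TMM scaling. Of the 9 genes, 6 were at least 2-fold higher in replicate 1 than in replicate 2 in both fractions, a pattern found in 605 of the 19682 tested genes (3.07%). Among the 12593 tested genes with a mean level between the lowest and the highest of the 9 (3.17 to 340 CPM), 3.49% had it. Replicate 1 was above replicate 2 by any amount in both fractions for 8 of the 9 (all but PDPN), against 24.2%, and none of the 9 had the reverse 2-fold step, against 4.88%. With scaling by library size alone the same 6 genes kept the 2-fold step, against 2.76% of tested genes. For CLIC5 the step then no longer exceeded every difference between fractions. Its GFP-HI was at 0.306 of GFP-NEG in replicate 2, a wider gap than its 2.88-fold step in GFP-NEG. The median difference of replicate 1 minus replicate 2 in log2 CPM was 1.75 in GFP-HI and 2.23 in GFP-NEG for the 9 genes, and 0.00 and -0.10 for all tested genes. This comparison was chosen after the values were seen, and it sets 1 library against 1 in each fraction, with no test.

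**Figure D3:**
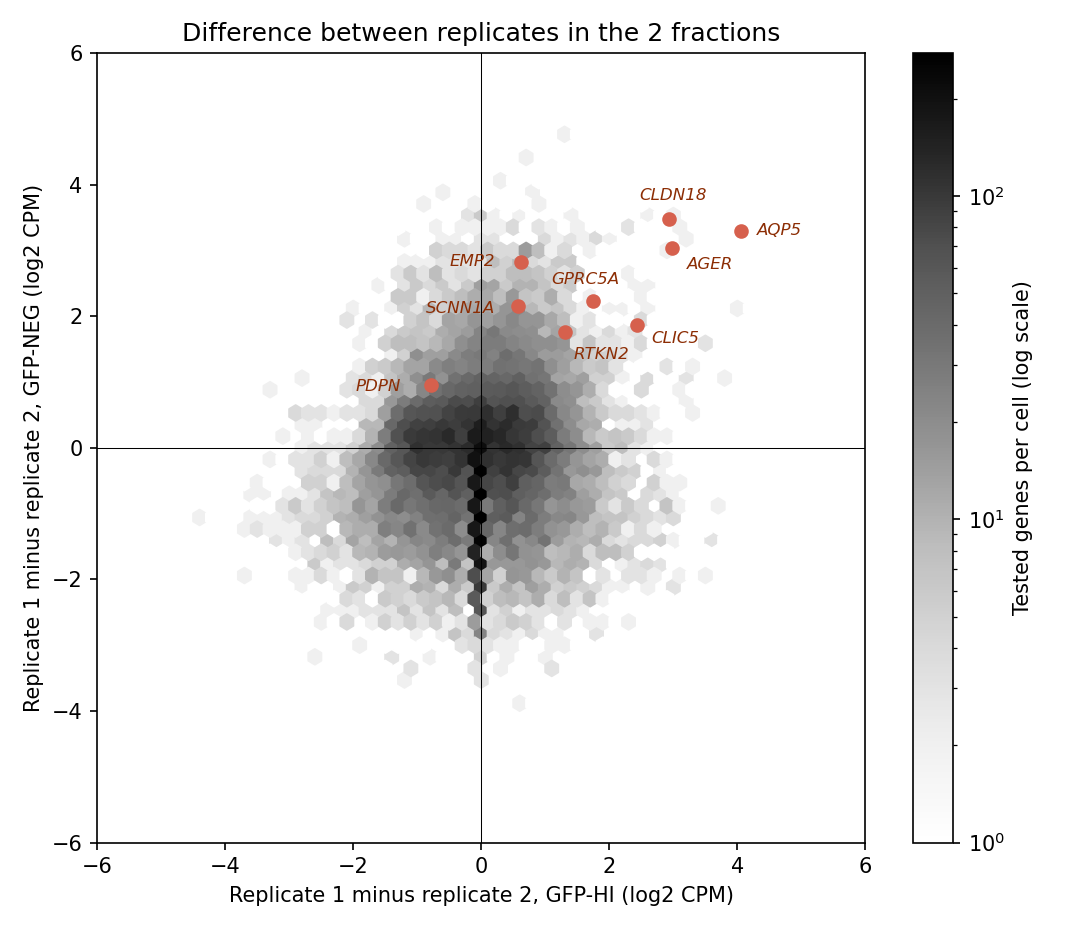
Replicate 1 minus replicate 2 in log2 CPM, in GFP-HI (x axis) and in GFP-NEG (y axis); grey hexagons count the tested genes on a log scale, red points are the 9 genes, and 18 of the 19682 tested genes lie outside the axes. AGER, AQP5, CLDN18, CLIC5, GPRC5A and RTKN2 lie in the upper right corner, where replicate 1 was higher in both fractions, and PDPN lies to the left of 0.

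Some genes of other alveolar epithelial lists had this step and others did not. NKX2-1, a transcription factor gene of type 1, type 2 and airway cells, had it at 78.6-fold in GFP-HI (from a single count in replicate 2, interval 13.7 to 3140) and 3.47-fold in GFP-NEG. YAP1, transcribed in many cell types, had it at 2.06-fold and 10.4-fold. None of the 7 tested type 2 cell markers, 7 general epithelial markers or 6 airway markers was at least 2-fold higher in replicate 1 in both fractions. The 7 matched type 2 markers summed to 139 and 283 CPM in GFP-HI and to 459 and 194 CPM in GFP-NEG (replicates 1 and 2), so replicate 1 was the lower of the GFP-HI pair and the higher of the GFP-NEG pair. SFTPC, the surfactant protein C gene, was at 81.9 and 170 CPM in GFP-HI against 301 and 61.4 CPM in GFP-NEG. General epithelial markers summed to 56.0 and 34.4 CPM in GFP-HI against 134 and 72.9 CPM in GFP-NEG, and airway markers to 169 and 215 CPM and to 380 and 123 CPM. No marker of these 3 lists that had a row was at 0 in any library. Outside the epithelium, 3 of 7 smooth muscle and pericyte markers (CNN1, CSPG4 and DES) and 1 of 8 macrophage and neutrophil markers (MARCO) had the step. S100A8, a RAGE ligand gene of neutrophils and monocytes, had it too. The smooth muscle and pericyte list as a whole summed to 1408 and 2009 CPM in GFP-HI and to 2198 and 337 CPM in GFP-NEG, with no marker at 0. The part of any of these cells in the replicate step of the type 1 genes was not tested.

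PDPN encodes podoplanin, a mucin-type membrane glycoprotein that binds ezrin and moesin on the inside and the platelet receptor CLEC-2 on the outside. It had 884 and 1400 counts in GFP-HI against 93 and 68 in GFP-NEG (replicates 1 and 2), or 40.0, 69.4, 14.4 and 7.38 CPM. Both GFP-HI libraries were above both GFP-NEG libraries, and replicate 2 was the higher of the GFP-HI pair, unlike any of the other 8 genes. GFP-HI was 2.78 times as high as GFP-NEG in replicate 1 (2.24 to 3.48) and 9.40 times in replicate 2 (7.37 to 12.2), the latter 5.88 by library size alone. The mean was 54.7 ± 20.7 CPM in GFP-HI against 10.9 ± 4.97 CPM in GFP-NEG (SD, n = 2 each). PDPN rose by 2.33 on the log2 scale with a standard error of 0.55 (adjusted p of 1.79e-04, edgeR). The call was lost without GFP-NEG replicate 2, where the fold change was 1.88 (adjusted p of 0.115), and held in the other 12 alternatives run.

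EMP2 encodes a tetraspan membrane protein that is abundant in lung and is present on other cells as well. It had 14002 and 8341 counts in GFP-HI against 1763 and 355 in GFP-NEG, or 634, 413, 273 and 38.5 CPM. The GFP-NEG libraries differed by 7.09-fold and the GFP-HI libraries by 1.53-fold, and the groups still did not overlap. GFP-HI was 2.32 times as high in replicate 1 (2.21 to 2.44) and 10.7 times in replicate 2 (9.65 to 12.0), the latter 6.70 by library size alone. EMP2 rose by 1.75 on the log2 scale with a standard error of 0.70, an interval of 0.38 to 3.12 and an adjusted p of 0.037 (edgeR). The call is marginal: it was lost in 8 of 13 alternatives, among them DESeq2 (adjusted p of 0.0511) and scaling by library size alone (0.0639), and the authors' deposited table gives an adjusted p of 0.0504 for a log2 fold change of 1.75. The fold change was 3.80 without GFP-NEG replicate 1 and 0.90 without GFP-NEG replicate 2, so the size of the change rests on which GFP-NEG library is kept.

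Markers of cell types other than epithelium that can express PDPN or EMP2 differed between the fractions too. Of 8 fibroblast markers, 6 were higher in GFP-HI and none lower, against 8.35% higher and 27.6% lower among all tested genes. The call of TCF21, 1 of the 6, was lost in 9 of 13 alternatives. PDGFRA, the receptor that marks lung fibroblasts, was at 822 and 562 CPM in GFP-HI against 97.0 and 22.5 CPM in GFP-NEG. Lymphatic endothelial markers moved the opposite way: 5 of 6 were lower in GFP-HI, and the list summed to 23.6 and 38.7 CPM in GFP-HI against 330 and 142 CPM in GFP-NEG. Of 8 blood endothelial markers 7 were lower, with sums of 171 and 188 CPM against 996 and 445 CPM. Only 4 of 7 mesothelial markers had a row, with sums of 0.136 and 0.743 CPM in GFP-HI against 4.49 and 12.6 CPM in GFP-NEG, and CALB2 and KLK11 were at 0 in both GFP-HI libraries. No marker of the fibroblast and endothelial lists was at 0 in any library. The part of these cells in the PDPN and EMP2 differences was not tested.

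**Figure D4:**
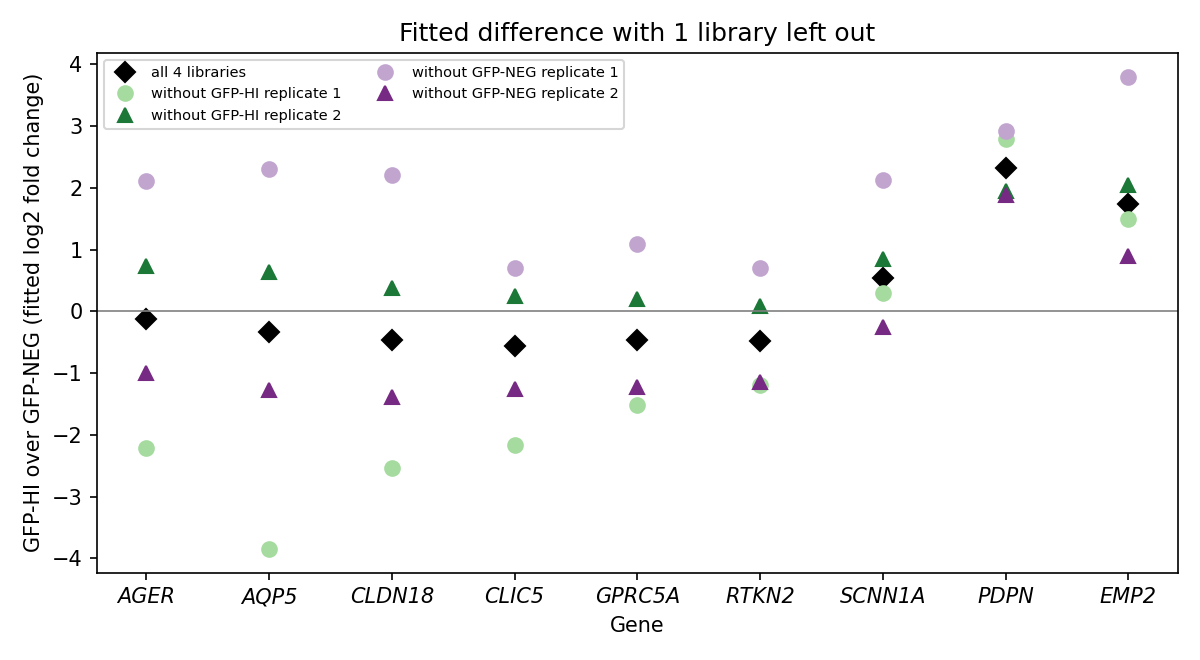
Fitted log2 fold change (GFP-HI over GFP-NEG, edgeR) of the 9 genes with all 4 libraries (black diamonds) and with each library left out in turn. PDPN and EMP2 stay above 0 in every fit, and the 6 genes that followed the replicate lie on both sides of 0, with AGER running from -2.21 to 2.12.

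Fits that leave out 1 library set 2 libraries against 1 and assume that the single library varies like the others. For the 6 genes that followed the replicate, such a fit leaves 1 replicate in 1 fraction only, and the sign changed with the library removed. AGER was at 2.12 (adjusted p of 0.0262, edgeR) and CLDN18 at 2.21 (0.0423) without GFP-NEG replicate 1, past the threshold, although neither was 2-fold apart between fractions within a replicate. AGER was at -2.21 and CLDN18 at -2.54 without GFP-HI replicate 1. The values within each replicate are those that do not depend on this imbalance.

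The standard deviation between libraries exceeded the mean for AGER, AQP5 and CLDN18 in both fractions and for EMP2 in GFP-NEG. AGER was at 58.2 ± 63.9 CPM in GFP-HI against 63.5 ± 70.4 CPM in GFP-NEG, and CLDN18 at 14.7 ± 16.1 and 20.5 ± 24.3 CPM (SD, n = 2 each). AQP5 was at 3.68 ± 4.79 and 4.72 ± 5.60 CPM, and EMP2 at 524 ± 156 and 156 ± 166 CPM. Standard errors of the fit do not show this scatter, since edgeR moved the spread of every gene fully to the trend over all genes.

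Of all tested genes with a symbol (13319), those whose log2 CPM over the 4 libraries lay nearest to AGER were CCN1, TRIM25 and ZBP1, at Euclidean distances of 0.73, 0.94 and 1.17. CCN1, a matricellular protein gene, was at 93.8 and 16.9 CPM in GFP-HI against 125 and 9.12 CPM in GFP-NEG. Nearest to PDPN were PRTFDC1, RASSF8 and LIX1L, at distances of 0.30, 0.33 and 0.35. RASSF8 was at 44.9 and 75.8 CPM in GFP-HI against 12.7 and 6.51 CPM in GFP-NEG. With 4 libraries such likeness is a description only.

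Further type 1 cell genes were read from a list of 12, of which 11 were tested: 1 was higher, 1 lower and 9 did not pass (median log2 fold change -0.10). Among all tested genes, 8.35% were higher and 27.6% lower. VEGFA, the endothelial growth factor that type 1 cells supply to alveolar capillaries, was at 48.6 and 17.3 CPM in GFP-HI against 17.7 and 6.95 CPM in GFP-NEG. VEGFA rose by 1.42 (adjusted p of 0.0326, edgeR), but lost the call in 8 of 13 alternatives, with an adjusted p of 0.115 under DESeq2, and was 0.60 without GFP-HI replicate 1, 0.86 without GFP-NEG replicate 2 and 2.28 without GFP-NEG replicate 1. SPOCK2, a matrix proteoglycan gene, fell by 1.58 (adjusted p of 0.0208). The SPOCK2 call was lost without GFP-HI replicate 1 (-1.93), GFP-HI replicate 2 (-1.08) or GFP-NEG replicate 2 (-0.84). The step between replicates recurred in 4 of the 11 (COL4A3, COL4A4, KRT7 and VEGFA), against 3.07% of all tested genes. The rest lacked it. AKAP5 in replicate 1 was at 0.816 of replicate 2 in GFP-HI and at 0.733 in GFP-NEG. For SPOCK2 these ratios were 1.87 and 0.416. COL4A3 and COL4A4 encode the basement membrane collagen chains that type 1 cells lay down. COL4A3 was at 8.92 and 0.446 CPM in GFP-HI against 12.2 and 2.82 CPM in GFP-NEG, and COL4A4 at 13.04 and 1.98 CPM and at 12.4 and 2.71 CPM (replicates 1 and 2). CAV1, the caveolin gene of type 1 cells and endothelium, did not share it, at 73.4 and 158 CPM in GFP-HI against 174 and 33.0 CPM in GFP-NEG.

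Partners of the channel genes were read in a list of 10 sodium channel and fluid transport genes. In it 1 was higher, 2 were lower and 7 did not pass, against 8.35% higher and 27.6% lower among all tested genes. SCNN1B and SCNN1G, which encode the beta and gamma subunits that assemble with SCNN1A, were low. SCNN1B was at 3.17 and 0.0496 CPM in GFP-HI (the latter a single count) and 2.48 and 1.52 CPM in GFP-NEG, and SCNN1G at 1.18 and 0.297 CPM against 5.11 and 3.04 CPM. Neither passed (adjusted p of 0.871 and 0.0995, edgeR). SGK1, the kinase that raises sodium channel surface abundance, was at 45.6 and 76.5 CPM in GFP-HI against 638 and 487 CPM in GFP-NEG, fell by 3.21 (adjusted p of 1.28e-04), and kept its call in each of the 13 alternatives. ATP1B1, the beta subunit of the sodium pump, fell by 1.48 (adjusted p of 0.0367), and the call was lost without any 1 of the 4 libraries (log2 fold changes from -1.76 to -1.15). AQP1, the water channel of endothelium and some stromal cells, rose by 1.49 (adjusted p of 0.0195). The AQP1 call was likewise lost without any 1 library (1.13 to 1.94) and with scaling by library size alone (adjusted p of 0.086) or the upper quartile (0.0573).

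Ligands of RAGE could be read for 2 of 6 genes listed. S100A8, the calgranulin of neutrophils and monocytes, was at 21.0 and 10.5 CPM in GFP-HI against 195 and 27.6 CPM in GFP-NEG, and fell by 2.82 (adjusted p of 1.14e-05, edgeR). This rested on GFP-NEG replicate 1: the fold change was -0.77 without that library (adjusted p of 0.432), and the call was also lost without GFP-HI replicate 2 (-2.37). S100A12, at 91.6 and 135 CPM against 422 and 94.1 CPM, did not pass (adjusted p of 0.122).

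Among 6 tested partners of podoplanin, 1 was lower (27.6% of all tested genes), none was higher (8.35%) and 5 did not pass. EZR, which encodes the membrane linker ezrin bound by both PDPN and CLIC5, was at 181 and 160 CPM in GFP-HI against 447 and 635 CPM in GFP-NEG. EZR fell by 1.68 (adjusted p of 0.0484, edgeR), a call lost without any 1 of the 4 libraries (-1.86 to -1.43) and without the filter on low counts (0.068). The linkers MSN and RDX were at 514 and 446 CPM and at 120 and 109 CPM in GFP-HI, and at 787 and 754 CPM and at 95.5 and 72.8 CPM in GFP-NEG. CLEC1B, which encodes the platelet receptor for podoplanin, had too few counts to be tested.

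Tight junction genes other than CLDN18 were lower in GFP-HI for 5 of 10, with none higher and a median log2 fold change of -1.91. The shares over all tested genes were 27.6% lower and 8.35% higher. CLDN5, the endothelial claudin, fell by 2.93 (adjusted p of 7.00e-05, edgeR), from 419 and 135 CPM in GFP-NEG to 45.7 and 27.3 CPM in GFP-HI. CLDN4, a claudin of alveolar and airway epithelium, was at 8.74 and 4.81 CPM in GFP-HI against 29.4 and 29.3 CPM in GFP-NEG (fell by 2.12, adjusted p of 0.00155). CLDN3, found mainly in type 2 cells, fell by 2.16 (adjusted p of 0.0424). Without GFP-HI replicate 2 these 3 calls were lost (-2.55 for CLDN5, -1.67 for CLDN4 and -1.34 for CLDN3), and without GFP-NEG replicate 1 CLDN5 was at -1.85. CLDN3 was at -3.61 without GFP-HI replicate 1, and its call was also lost without GFP-NEG replicate 1 (-2.05) or GFP-NEG replicate 2 (-2.26), with the stricter count filter (adjusted p of 0.0586) and with GFP-HI thinned to the GFP-NEG depth (0.0566). Replicate 1 of CLDN3 was 5.06 times replicate 2 in GFP-HI (2.78 to 9.96) and 1.09 times in GFP-NEG. For CLDN4 these ratios were 1.82 (1.42 to 2.35) and 1.00, so neither gene had the step of CLDN18 in both fractions.

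Transcription factors that act in alveolar cells were read from a list of 9, with 2 higher, none lower and 7 not past the threshold. For all tested genes these shares were 8.35% higher and 27.6% lower. YAP1 and WWTR1 encode the Hippo pathway co-activators YAP and TAZ, which promote type 1 cell fate, and TEAD1 encodes a DNA-binding partner of both. TEAD1 was at 72.6 and 72.7 CPM in GFP-HI against 30.1 and 13.6 CPM in GFP-NEG and rose by 1.73 (adjusted p of 0.00432, edgeR), a call lost without GFP-HI replicate 2 (1.79) or GFP-NEG replicate 2 (1.23). YAP1 was at 216 CPM in GFP-HI replicate 1 and 10.1 CPM in GFP-NEG replicate 2, with the other GFP-HI and GFP-NEG libraries level with each other, so the groups overlapped. It rose by 1.47 (adjusted p of 0.0298). The YAP1 call was lost in 8 of 13 alternatives, with an adjusted p of 0.156 under DESeq2, and among them without GFP-HI replicate 1 (0.94), GFP-HI replicate 2 (1.93) or GFP-NEG replicate 2 (0.57), and its fold change was 4.03 without GFP-NEG replicate 1. WWTR1, at 1.23, did not pass (adjusted p of 0.056). NKX2-1, the lung epithelial lineage factor, was at 3.90 and 0.0496 CPM in GFP-HI (the latter a single count) and 5.27 and 1.52 CPM in GFP-NEG, higher in replicate 1 in both fractions, and did not differ between fractions by the test (adjusted p of 0.631).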

How the data were processed

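Per the submitters' processing notes, featureCounts, Subread 1.5.2 and DESeq2 1.37.6 were used. The aligner, strand setting and genome build are not given in the sources used here, so genes that overlap a neighbour are uncertain. The authors deposited whole-number counts per gene for each of the 4 libraries. Their comparison table of 16250 genes holds the same counts, a linear normalized signal, a log2 fold change, a test score and p-values (raw and adjusted), per the file headers. The signal columns were used only for a check: under 2 of their 4 headings stand the scaled counts of a different library. Ensembl identifiers were given symbols where the gene name table had one (834 renamed). Every row names a gene. No other column of values was left over (0 columns).

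Here edgeR 4.0.16 (R 4.3.3; TMM, filterByExpr, glmQLFit and glmQLFTest, group as the only term) was run on all genes, with Benjamini-Hochberg adjustment and a threshold of 0.05, and DESeq2 1.42.0 as an alternative. The fit was tested on simulated data in which few genes were changed. After adjustment it recovered 12.8% of genes with an absolute log2 change of 2 and 37.4% of those with 3. At an unadjusted p under 0.05 (edgeR) these shares were 74.4% and 95.6%. The simulated fit made 45 calls and the fit of these data 7076, so the adjusted cut-offs are not alike. The recovered shares therefore do not carry over to these data. A gene that did not pass may still differ. The prior degrees of freedom were infinite and the common dispersion 0.239. The standard error is the log2 fold change divided by the square root of F. CPM uses the library total times the TMM factor, and log2 CPM a prior count of 2. One count is worth 0.0453 to 0.155 CPM. Ratios within a replicate have 95% exact binomial intervals, which cover counting error only. The labels call replicates biological but name no animals, so p-values refer to these samples only. The spread behind the edgeR p-values is the trend over all genes, not the scatter of each gene between its own libraries. The headings of the comparison table name pig 1 and pig 2, but as 2 of the 4 are wrong they do not establish which fractions share a pig, and the fractions were treated as sharing only a number.

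The comparison of replicate 1 with replicate 2, its 2-fold step and its backgrounds were added after the values were seen. The 10 genes, the other lists, the tests and the alternatives were chosen with earlier results of these data known. Named genes are the 10 members; from each other pathway list up to 3 genes past the threshold with the largest change in each direction, and direct partners of a member; and for AGER and PDPN the 3 nearest genes. In the marker lists and elsewhere, some genes were named after their values were seen. These were CNN1, CSPG4, DES, MARCO, KRT7, PDGFRA, TCF21, CD163, SFTPC, COL4A3, COL4A4, CAV1, AKAP5 and NKX2-1. Of the 29 listed genes of other tissues 24 had a row, and ACTN3 or CYP7A1 was the highest in each library. The T and NK cell markers were lower in GFP-HI in 5 of 6 tested genes, B cell markers in 5 of 6, and macrophage and neutrophil markers in 5 of 8, with none higher. Smooth muscle and pericyte markers were higher in 1 and lower in 3 of 7. Among these calls, that of CD163 (a macrophage marker) was lost in 8 of 13 alternatives and that of DES in 7. The shares among all tested genes were 8.35% higher and 27.6% lower.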

Additional observations from a re-analysis of the deposited data

How the results depend on the processing

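The fractions share replicate numbers, and the difference between replicates correlated between them with an r of 0.159 across the 19682 tested genes, which are not independent. The replicate block (edgeR) changed no call of the 9 type 1 cell genes (2 higher, 0 lower), with a median of -0.28, EMP2 at 2.31 (adjusted p of 0.00951) and 1707 higher and 4793 lower calls over all genes. With it WWTR1 passed (1.90, adjusted p of 0.0109). The calls of VEGFA, SPOCK2, ATP1B1 and CLDN3 were lost under DESeq2 with the block. The count of 2 higher genes fell to 1 (PDPN alone) under upper-quartile scaling, library size alone, the filter of 10 counts in every library of a group, DESeq2, and GFP-HI thinned to the GFP-NEG depth. Leaving out single libraries gave 0 to 4 higher genes, 0 without GFP-NEG replicate 2 and 4 without GFP-NEG replicate 1. No alternative called a type 1 cell gene lower. The median of the genes was -0.54 under upper-quartile scaling and -0.56 under library size alone. It was -1.51 to 2.13 with 1 library left out, in fits that keep 1 replicate in 1 fraction only. Over all genes, the higher calls numbered 1083 (upper quartile) and 888 (library size alone) against 1643, and the lower calls 3524 (filter of 10), 3273 (DESeq2 with the block) and 3588 (thinned) against 5433. Without 1 library they numbered 216 to 1635 and 1575 to 4999. The median over every tested gene, -0.25 as reported, was -0.58 with the upper quartile, -0.68 with library size alone, -1.21 with no filter, -0.05 with the filter of 10, -0.10 thinned and -0.59 to 0.03 with 1 library left out.

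The sign of a type 1 cell gene changed only where a library was left out, with ranges of -2.21 to 2.12 for AGER, -3.85 to 2.31 for AQP5, -2.54 to 2.21 for CLDN18, -2.16 to 0.70 for CLIC5, -1.51 to 1.09 for GPRC5A, -1.19 to 0.71 for RTKN2 and -0.26 to 2.13 for SCNN1A. The other 9 alternatives kept each sign, except that AQP5 was not tested under the filter of 10. Counts were few for AQP5 (6 in GFP-HI replicate 2 and 7 in GFP-NEG replicate 2) and SCNN1A (8 in GFP-NEG replicate 2), and 3 counts are worth 0.136 to 0.465 CPM.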
